A study of Mus musculus with 22 samples.

Results

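The livers of male mice under caloric restriction (CR) were compared with those of females fed ad libitum (AL). Each group had 5 livers, with 1 RNA-seq library per mouse, so the comparison took 10 of the 22 libraries in the series. The members were chosen by the sex and diet that the sample labels give. All mice were wild-type C57BL/6NCrl, an inbred strain, and the diets ran from 9 to 13 weeks of age. CR males received 70% of the AL intake as 1 ration a day in the morning, whereas AL females ate freely, and every mouse was fasted for about 8 h before its liver was taken. AL males (n = 6) gave the sex difference on the AL diet, and CR females (n = 6) are quoted beside some results. CR males and AL females differ in both sex and diet, so the parts of these in a difference cannot be told apart within this pair of groups, and all comparisons against AL females share the same 5 libraries.

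Mouse liver is strongly sexually dimorphic. Pituitary growth hormone reaches it in pulses in males and almost continuously in females, and the transcription factors STAT5B, BCL6, CUX2 and HNF6 pass this pattern on to target genes. Many of the targets encode enzymes that oxidise, sulphate or transport steroids, drugs and fatty acids, such as the female-biased Cyp3a and Sult2a genes and the male-biased Cyp4a12 and major urinary protein (Mup) genes. The question here was which of these autosomal genes still separated CR males from AL females and in which the levels of CR males had come close to those of AL females.

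Values are normalised counts, which are read counts per gene divided by a size factor of each library and not by gene length, so levels were compared between libraries and not between genes. CR male libraries held 34807413 to 35230549 reads on genes, against 34659972 to 37309166 in the 4 AL females whose recovered reads were used. Pearson's correlations between pairs of libraries on the log2 scale were 0.951 to 0.985 within CR males and 0.946 to 0.979 within AL females. AL female replicate 1 stood apart, since 20 pancreatic acinar transcripts made up 6.85% of its total and at most 0.288% in the other 9 libraries. The acinar sum was also high in CR male replicate 4 among CR males, at 91740.5 against at most 1044 in the other 4. None of the 20 acinar genes was called by limma, although 16 had an unadjusted p under 0.05 and all were lower on average in CR males, with log2 differences of -6.57 to -2.54 and adjusted p from 0.084. Each leading count is given with and without AL female replicate 1. The hepatocyte markers that the table holds were abundant in both groups, with sums of 3469590.0 to 5520580.0 in CR males and 4306800.0 to 6812240.0 in AL females. The X-linked gene Eif2s3x, which escapes X inactivation, fitted the labelled sex of all 10 mice, with 1639, 1953, 1908, 1543 and 1727 in CR males and 2664, 2639, 2670.1, 2686 and 2634 in AL females.

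Genes were tested when their mean over the 22 libraries reached 10, the lowest tested having a mean of 10.015 and the highest left out 9.995. Of 14035 genes tested, 1452 differed between CR males and AL females, 680 higher and 772 lower in CR males. A gene was called when its fold change exceeded 1.5 and its adjusted p lay below 0.05 in limma on log2(value + 1), in a fit of all 4 groups with Benjamini-Hochberg adjustment over all genes tested. The background is therefore 10.3% of all genes, 4.85% higher and 5.5% lower. Among 13384 autosomal genes 1381 were called, again 10.3%, with 663 higher (4.95%) and 718 lower (5.36%) in CR males. In the other comparisons quoted beside it, 6.63% of all genes were called between the AL sexes, 9.9% between CR and AL males, 5.4% between CR and AL females, also 5.4% of autosomal genes, and 2.14% between the CR sexes. The values of all 5 CR males lay on 1 side of those of all 5 AL females in 876 of the 1381, and the groups did not overlap in 11.7% of all autosomal genes. Without AL female replicate 1 the counts were 1350 genes and 1288 autosomal genes. The median log2 difference over all genes was -0.00927.

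The autosomal genes called between AL males and AL females were taken as the genes with a sex difference. There were 879 of them, 493 higher in AL females and 386 higher in AL males (6.57% of autosomal genes). The AL livers chose these genes, so their AL sex differences are a description. A position was computed for each library by averaging the log2 values over the 879 genes, with the sign set so that the AL male mean is 0% and the AL female mean is 100%. CR males lay at 55.9%, 47.9%, 53.4%, 46.1% and 30.2%, a mean of 46.7% ± 10.1 (SD, n = 5). All 5 fell between the highest AL male at 12.9% and the lowest AL female at 91.1%, and replicate 5 lay nearest to the AL males. The same AL libraries chose the genes and set the scale, which can widen the gap between the AL groups. Its effect on the position of the CR males was not tested. CR females stood at 101% ± 4.25 (SD, n = 6). Without AL female replicate 1 in the choice of genes and in the scale, the CR male mean was 45.9% ± 10.1.

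**Figure D1:**
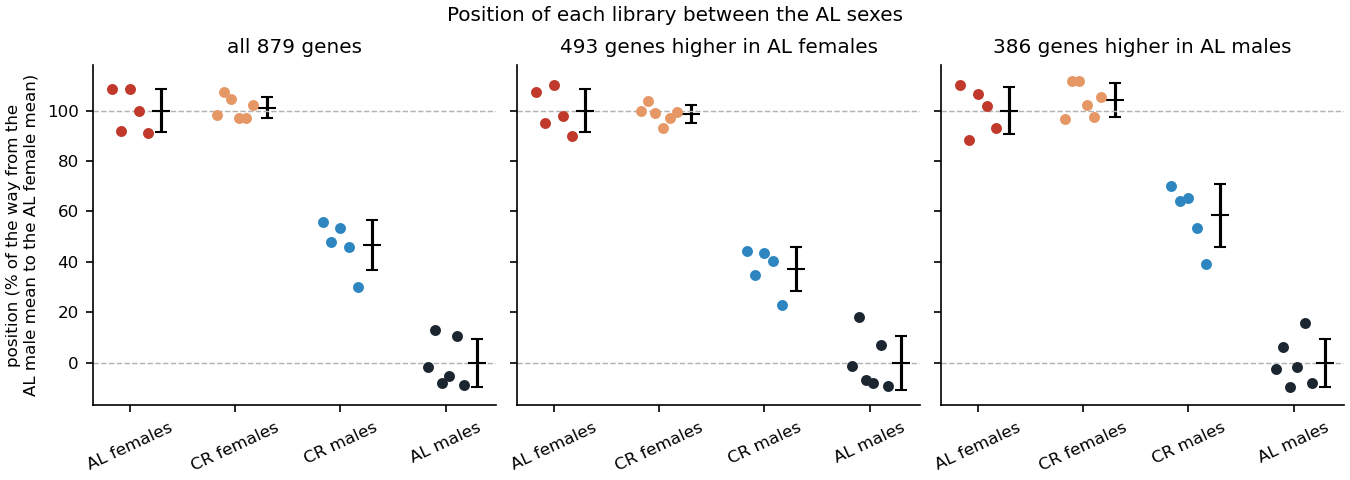
Position of each of the 22 libraries between the AL male mean (0%) and the AL female mean (100%), over all 879 genes with a sex difference in AL livers and over the genes higher in either sex. Points are libraries and bars are group means ± SD. The 5 CR males lie between 30.2% and 55.9% over all genes, and nearer to AL females in the male-biased genes (58.4%) than in the female-biased genes (37.2%).

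The position differed by the direction of the sex difference. In the genes higher in AL females, CR males lay at 37.2% ± 8.87 on this scale, and in the genes higher in AL males at 58.4% ± 12.4 (SD, n = 5). Each of the 5 CR males had the higher value in the male-biased genes, from 39.2% against 22.9% in replicate 5 to 70.2% against 44.5% in replicate 1. The AL libraries set both scales, so this contrast was not tested.

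The 879 genes were then sorted by their difference between CR males and AL females. Those called with the sign of the AL sex difference still differed. A gene was taken as converged when it was not called and the 95% interval of its log2 difference lay within ±1, that is within 2-fold. Genes called with the opposite sign had crossed, and the rest, neither called nor with an interval inside these limits, stayed undecided. By these rules 340 genes (38.7%) still differed, 345 (39.2%) converged, 16 crossed and 178 were undecided. The converged count depends on the limit: within 1.5-fold in place of 2-fold, 94 genes converged and 429 were undecided. Without AL female replicate 1 the set held 626 genes, of which 259 still differed, 228 converged, 9 crossed and 130 were undecided. Then 243 of the 340 genes that still differed kept that class. Of the 345 converged genes 193 kept theirs, and 141 were no longer called between the AL sexes.

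**Figure D2:**
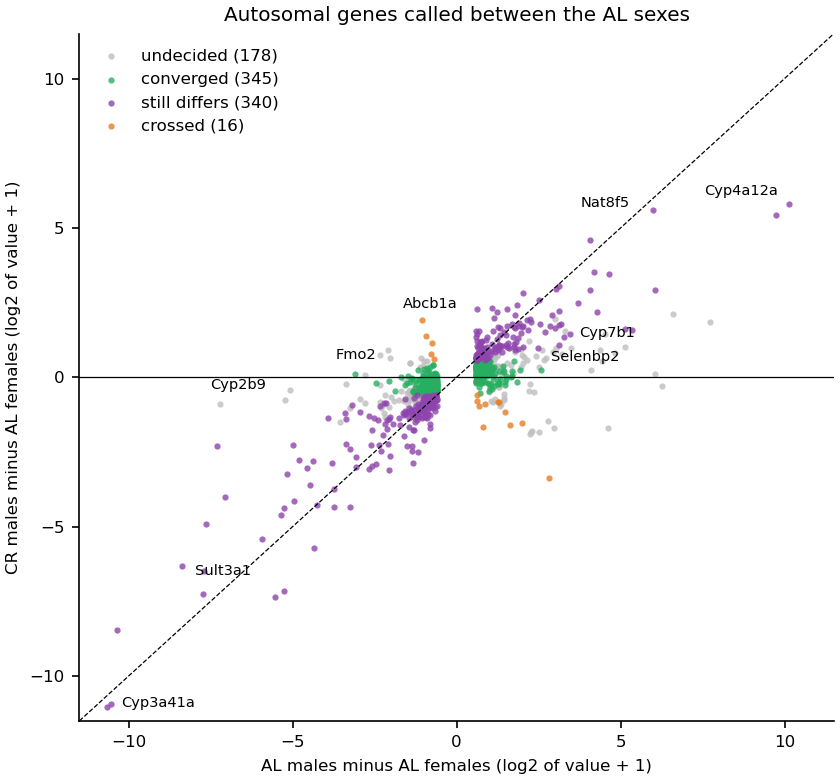
Log2 difference between AL males and AL females (horizontal) against that between CR males and AL females (vertical) for the 879 autosomal genes called between the AL sexes, both on the scale of log2(value + 1) and both against the same 5 AL females. The dashed line marks equal differences and the horizontal line marks no difference. Cyp3a41a and Nat8f5 lie near the dashed line, Fmo2 and Selenbp2 near the horizontal line, and Abcb1a on the other side of it.

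The genes that still differed had larger AL sex differences than the converged genes, with a median of 1.17 against 0.75 on the log2 scale. Between CR males and AL females the medians were 1.10 and 0.27. Converged genes closed a median of 68.8% of the AL difference and genes that still differed 4.92%. The sorting used the difference between CR males and AL females, so these medians describe the classes and were not tested. The change itself is that between CR males and AL males in the same fit, and the AL males entered both this test and the choice of genes. This change equals the gap between the differences that chose and sorted the genes, so its calls follow partly from the class and are a description. It was called towards the AL females in 144 of 345 converged genes, 43 of 340 that still differed and 82 of 178 undecided genes. It was called away from them in 14 that still differed and in 0 converged or undecided genes. Of all autosomal genes, which were not chosen in this way, 9.95% were called in either direction. In the remaining converged genes the move in males was not called, so convergence there rests on the interval alone.

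Male-biased genes led the list of autosomal genes that were higher in CR males. Cyp4a12a (chr4:115299046-115332815 on mm10), a fatty acid hydroxylase of the male liver, had 302, 73.3, 306, 1267 and 4208 in CR males and 5.2, 14.3, 8.39, 7.07 and 8.34 in AL females. All CR males exceeded all AL females, replicate 2 was the lowest and replicate 5 the highest, and AL males had 7820.1 to 14636 (median 10561). On the log2(value + 1) scale CR males were higher by 5.81 ± 0.76 (SE; adjusted p = 1.7e-05) and differed from AL males by -4.33 ± 0.73 (SE; adjusted p = 2.3e-04). The first difference was 6.51 without CR male replicate 2 and 5.05 without replicate 5. CR males thus held a level of Cyp4a12a between those of the AL sexes. Its neighbour Cyp4a12b, with 35.8% of the 100-base stretches of Cyp4a12a also found in its transcripts, gave 5.43 ± 0.76 (SE; adjusted p = 3.9e-05), 6.19 without CR male replicate 2 and 4.73 without replicate 5, and reads shared by the pair could have been split between them.

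Cyp2d9, a male-specific steroid 16-alpha-hydroxylase, had 21064, 18082, 18193, 26121 and 31570.4 in CR males and 3552, 2508, 1115, 1144 and 3125 in AL females. The groups did not overlap, and the ratio of their means was 10.1. Its log2 difference was 3.46 ± 0.30 (SE; adjusted p = 9.9e-08), and AL males had 35852 to 64411 (median 52882). Cyp7b1, which hydroxylates oxysterols on the acidic route to bile acids, had 944, 883, 1360.2, 1184 and 1564 in CR males and 288, 659, 541, 289 and 459.9 in AL females, with 3213 to 6017 (median 4907) in AL males. The difference was 1.45 ± 0.22 (SE; adjusted p = 1.2e-04), and its change from AL males was -2.00 ± 0.22 (SE; adjusted p = 1.5e-06). Both genes remained higher in CR males than in AL females while falling below AL males.

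Nat8f5, a member of a family of N-acetyltransferases, was among the genes called higher in CR males with nearly no reads in AL females. It had 42.9, 111, 30.7, 72.3 and 68.9 in CR males, whereas 4 of 5 AL females were at 0 and replicate 3 at 1.87. AL males had 60.8 to 120.4 (median 74), so CR and AL males overlapped. CR males were higher by 5.61 ± 0.46 (SE; adjusted p = 4.9e-08) on the log2(value + 1) scale, a size that the pseudocount sets, and differed from AL males by -0.38 ± 0.44 (SE; adjusted p = 0.61). The growth hormone axis had 1 higher member, Foxa1, a pioneer factor at sex-biased liver enhancers. Foxa1 had 660.1, 622, 562, 1428 and 583 in CR males and 288, 470.5, 401, 272 and 341 in AL females (1.05 ± 0.22 SE, adjusted p = 0.0018), with replicate 4 far above the other CR males.

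Female-biased cytochrome P450 genes led the differences in the other direction. Cyp3a41a (chr5:145694049-145720136), a steroid-oxidising enzyme of the female liver, had 24.4, 9.16, 2.05, 10.1 and 52.7 in CR males and 6691, 53840.2, 61294, 13686 and 43142 in AL females. The lowest AL female lay far above the highest CR male, and CR males overlapped the AL males, which had 1.95 to 46.9 (median 23.1). The log2 differences were -10.93 ± 0.84 (SE; adjusted p = 3.0e-08) for Cyp3a41a, -11.03 ± 0.88 (SE; adjusted p = 3.9e-08) for Cyp3a41b, -8.47 ± 0.75 (SE; adjusted p = 1.2e-07) for Cyp3a44 and -7.25 ± 1.06 (SE; adjusted p = 6.2e-05) for Cyp3a16. Between CR and AL males none of these 4 genes was called, with adjusted p from 0.075 to 0.81. Their AL female values varied widely, and the Cyp3a16 difference was -8.16 without AL female replicate 1 and -6.42 without replicate 3, while that of Cyp3a41b was -10.40 without CR male replicate 3.

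The 4 Cyp3a genes lie close together on chromosome 5, and the bases before their starts are shown because they are nearly the same in all copies. The stretches of 68 bases below come from the RefSeq promoter table of GRCm38.p6, 5′ to 3′ on the minus strand, with a match to TTANNTAA in capitals, 125 bases before the start in Cyp3a41a, Cyp3a41b and Cyp3a44 and 129 in Cyp3a16.
Cyp3a41a (chr5:145720224-145720291, minus strand): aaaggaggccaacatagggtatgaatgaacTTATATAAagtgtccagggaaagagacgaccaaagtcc
Cyp3a41b (chr5:145584818-145584885, minus strand): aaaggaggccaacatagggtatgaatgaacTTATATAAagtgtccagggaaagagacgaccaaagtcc
Cyp3a44 (chr5:145805962-145806029, minus strand): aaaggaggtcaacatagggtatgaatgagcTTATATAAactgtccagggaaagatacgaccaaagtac
Cyp3a16 (chr5:145469815-145469882, minus strand): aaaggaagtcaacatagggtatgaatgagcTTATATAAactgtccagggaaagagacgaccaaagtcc
The stretches of Cyp3a41a and Cyp3a41b were identical, that of Cyp3a44 differed from theirs at 5 bases and that of Cyp3a16 at 4. In the transcripts, 88.4% of the 100-base stretches of Cyp3a41a also occur in Cyp3a41b, so the levels of this pair cannot be taken as separate measurements. The shares found in any other Cyp3a gene were 5.37% for Cyp3a44 and 0.123% for Cyp3a16.

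Sulphotransferases attach sulphate to steroids and bile acids, and Sult2a1 and Sult2a2 had very low values in CR males, whereas Sult2a8, which was higher in AL males than in AL females, converged, with a mean of 4865 ± 2088 in CR males and 5497 ± 1259.9 in AL females (SD, n = 5). Sult2a1 had 0.975, 0, 1.02, 0 and 0 in CR males and 362, 107, 486, 28.3 and 403 in AL females, with no overlap. Sult2a2 had 1.95, 0, 0, 0 and 2.03 in CR males and 646, 108, 456, 61.6 and 501 in AL females. Both had values of only 0 to 2.03 in CR males, so the log2(value + 1) differences of -7.14 ± 0.84 (SE; adjusted p = 4.5e-06) and -7.34 ± 0.71 (SE; adjusted p = 3.5e-07) depend on the pseudocount. Sult2a1 reached -7.81 without AL female replicate 4, the lowest female. Sult3a1 had 18.5, 16.3, 41.9, 5.49 and 7.09 in CR males and 340.1, 2483, 2753, 348 and 3179.5 in AL females, a difference of -6.33 ± 0.65 (SE; adjusted p = 7.7e-07). AL males had only 0 to 6.87 (median 2.66), and the rise of Sult3a1 in CR males over AL males was called (2.05 ± 0.63 SE, adjusted p = 0.026) although the level stayed far below that of every AL female.

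A1bg, an abundant plasma glycoprotein gene with female-biased expression in mouse liver, had 19.5, 15.3, 4.09, 5.49 and 12.2 in CR males and 156, 4116, 1244, 1455 and 745 in AL females. AL female replicate 1 was the lowest female but still above all CR males. The difference was -6.50 ± 0.72 (SE; adjusted p = 1.8e-06), and -7.16 without that library. The P450 genes Cyp2c40 and Cyp2c69 differed by -2.88 ± 0.24 (SE; adjusted p = 4.9e-08) and -4.62 ± 0.41 (SE; adjusted p = 1.0e-07), and they share 22.1% and 29.6% of their 100-base stretches with each other. Cyp2c40 had 3739, 2362, 3238, 1666 and 3071 in CR males and 11659, 32738, 19735, 20929 and 19979 in AL females, beside 1113 to 1885 (median 1394) in AL males. Of the CR males 4 lay above all AL males and replicate 4 within their range. The move of Cyp2c40 away from AL males was called (0.93 ± 0.23 SE, adjusted p = 0.0063), so CR males stood slightly nearer to the AL females and yet far below them.

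**Figure D3:**
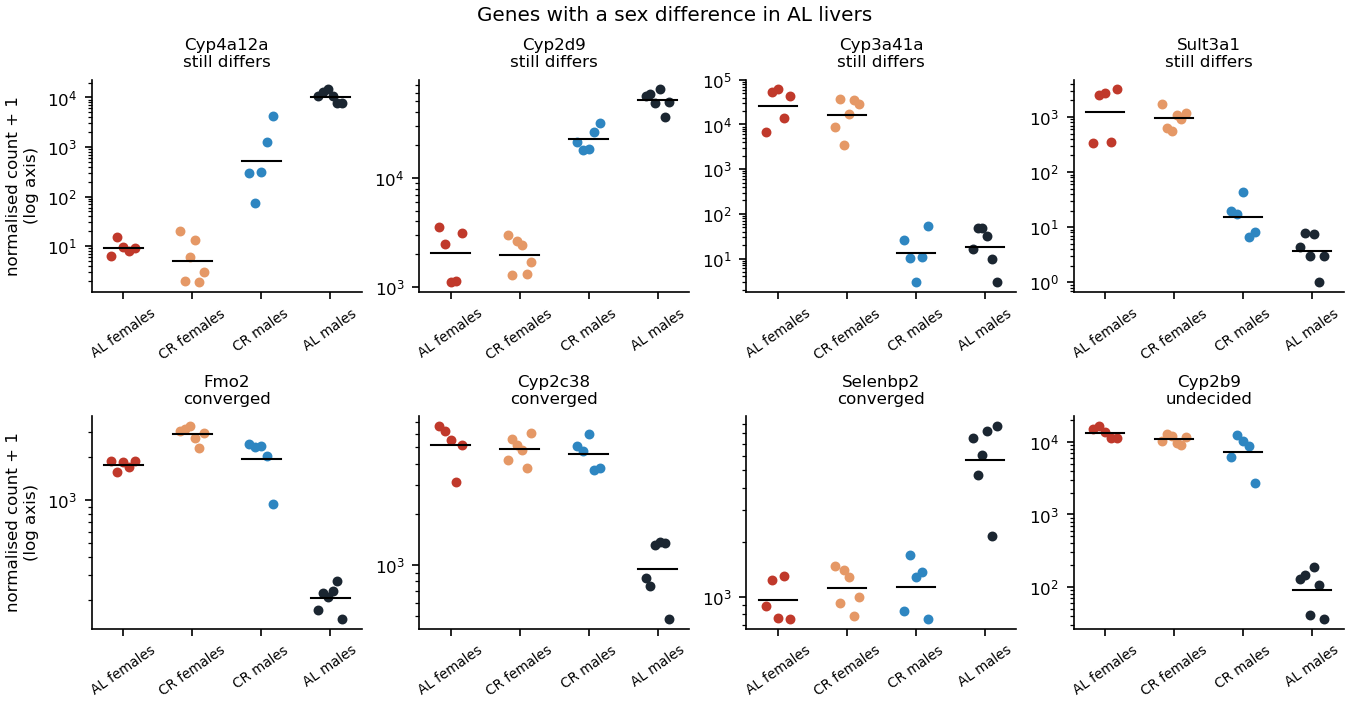
Normalised count + 1 on a log axis in every library of the 4 groups for 4 genes that still differed, 3 that converged and 1 undecided gene. Points are libraries and lines are means of log2(value + 1). CR males lie between the AL sexes in Cyp4a12a and Cyp2d9, with the AL males in Cyp3a41a, and with the AL females in Fmo2, Cyp2c38 and Selenbp2.

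Of the growth hormone axis genes that still differed, Prlr, Igfbp3 and Tox were lower in CR males, and Foxa1, described above, was higher. The prolactin receptor gene Prlr, which is induced in the female liver, had 2689, 3846, 3833, 1950.4 and 1944 in CR males and 4807, 8218, 5843, 6769 and 5816 in AL females (-1.18 ± 0.21 SE, adjusted p = 5.6e-04). Igfbp3, a carrier of insulin-like growth factors, had 226, 388, 315, 344 and 378 in CR males and 688, 499, 689, 1043 and 749 in AL females (-1.13 ± 0.18 SE, adjusted p = 1.9e-04). The groups did not overlap in either gene. Tox, a female-biased chromatin factor, was called with -0.87 ± 0.26 (SE; adjusted p = 0.024), but the call was lost without AL female replicate 1 (-0.70, adjusted p = 0.077) and without CR male replicate 1 or 5. The growth hormone receptor gene Ghr (0.26, adjusted p = 0.082) and Igf1 (-0.15, adjusted p = 0.6), its main output, were not called, with 95% intervals of 0.05 to 0.46 and -0.52 to 0.22. In all, 5 of 31 members of this list were called (16.1%, beside 10.3% of all genes), 1 higher and 4 lower, with a list median of -0.20.

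Several female-biased genes reached the levels of AL females in CR males. Fmo2, a flavin monooxygenase, had 2480.4, 2332, 2391, 2025 and 933 in CR males, 1866, 1564, 1859, 1688 and 1881 in AL females and 147 to 270.3 (median 218) in AL males. Replicate 5 was the lowest CR male, but all 5 exceeded every AL male. CR males differed from AL females by 0.12 ± 0.20 (SE; adjusted p = 0.73), with a 95% interval of -0.30 to 0.54, and from AL males by 3.22 ± 0.19 (SE; adjusted p = 3.4e-10). Cyp2c38, a P450 of the same cluster as Cyp2c40, had 5052, 4745, 6021, 3676 and 3754 in CR males and 6666, 6195, 5537, 3128 and 5150.4 in AL females, beside 479 to 1374 (median 1073) in AL males. The differences were -0.18 ± 0.25 (SE; adjusted p = 0.67) from AL females and 2.27 ± 0.24 (SE; adjusted p = 1.2e-06) from AL males. None of its 100-base stretches occurs in another Cyp2c gene. Thus Cyp2c38 and Cyp2c40, neighbours with the same AL sex bias, fell into different classes.

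Cers6, which makes ceramides with palmitoyl chains, had 639, 773, 726, 622 and 499 in CR males and 947, 583, 749.8, 452 and 594 in AL females, with 156 to 255 (median 191) in AL males. The difference from AL females was 0.00 ± 0.19 (SE; adjusted p = 0.9997) and that from AL males 1.69 ± 0.18 (SE; adjusted p = 1.7e-06). CR males and AL females overlapped in full, and all CR males lay above the AL males. Vldlr, the receptor for very low density lipoprotein, had 198, 376, 370.2, 428 and 121 in CR males and 603, 221, 267, 250.4 and 254 in AL females, with AL female replicate 1 far above the others, and gave -0.13 ± 0.37 (SE; adjusted p = 0.85) from AL females and 1.91 ± 0.35 (SE; adjusted p = 5.4e-04) from AL males. Trim24, a co-regulator that restrains retinoic acid signalling, had 1294, 1003, 1062, 851 and 707 in CR males and 1313, 1577, 1624, 1209.6 and 1030.3 in AL females. Its difference of -0.47 ± 0.16 (SE; adjusted p = 0.043) passed the p threshold but stayed under 1.5-fold, while the change from AL males was 1.43 ± 0.15 (SE; adjusted p = 1.2e-06). Sh2d4a and Ect2 also converged, with differences of -0.25 and -0.20 from AL females and of 1.33 and 1.31 from AL males.

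The male-biased converged genes named here were lower in CR males than in AL males. Selenbp2, a selenium-binding protein gene of the male liver, had 838, 1705, 1282, 1372 and 753 in CR males, 888, 1230.2, 763, 1307 and 754 in AL females and 2168 to 8772 (median 6788) in AL males. CR males and AL females overlapped, with differences of 0.24 ± 0.31 (SE; adjusted p = 0.64) from AL females and -2.32 ± 0.29 (SE; adjusted p = 1.1e-05) from AL males. Aox3, an aldehyde oxidase, had 3304, 2848, 3922, 5853 and 4135 in CR males and 3386, 4175, 1902, 2578 and 2033 in AL females, with 6036 to 12106 (median 9849.6) in AL males. Its change from AL males was -1.23 ± 0.21 (SE; adjusted p = 2.5e-04), and its difference from AL females was 0.53 ± 0.22 (SE; adjusted p = 0.095) with an interval of 0.08 to 0.98. Gpc1, a cell-surface heparan sulphate proteoglycan, had 169.7, 158, 169, 89.7 and 287 in CR males and 67.6, 174.6, 172, 276 and 100.1 in AL females and changed from AL males by -1.49 ± 0.30 (SE; adjusted p = 0.0013). Rnase13, Atp8b4, Cyp21a1, Ccdc30 and the pseudogene Adh6-ps1 converged as well, with differences from AL females of -0.17 to 0.25 and from AL males of -2.01 to -1.54. Rnase13 and Atp8b4 lie near the filter on low values, with CR male values of 6.41 to 26.5.

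Large moves could leave a gene undecided. Cyp2b9, a P450 of the female liver, had 35.1 to 185.9 (median 116) in AL males but 6249, 12427, 10408, 8726 and 2727 in CR males, and 14918, 16642, 13974, 11246 and 11284 in AL females. The CR males thus lay far above every AL male and 4 of 5 lay below all AL females. The change from AL males was 6.32 ± 0.37 (SE; adjusted p = 3.4e-10), and the difference from AL females was -0.90 ± 0.39 (SE; adjusted p = 0.12) with an interval of -1.71 to -0.09, which reached beyond the limit of -1. Mup1, a pheromone carrier with the highest AL values in males, had 1139.8, 7136, 2055, 964 and 9429 in CR males and 10343, 15787, 22000.4, 1232 and 18885 in AL females (-1.82 ± 0.75 SE, adjusted p = 0.096). It was called lower by edgeR and DESeq2 on recovered reads, in fits that also left out AL female replicate 4, and by limma without AL female replicate 4 (-2.56, adjusted p = 0.012) and without CR male replicate 5 (adjusted p = 0.048). Mup genes share much of their sequence, 55.7% of the 100-base stretches of Mup1, so their single values are uncertain.

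A list of 91 known sex-biased liver genes was counted as a whole. Of 44 female-biased genes, 26 were lower and 2 higher in CR males than in AL females, with a median of -1.29. Of 47 male-biased genes, 17 were higher and 2 lower, with a median of 0.79. Of all genes 4.85% were higher and 5.5% lower. Among the female-biased genes 26 still differed, 6 converged, 2 crossed and 7 were undecided, and among the male-biased genes the numbers were 14, 3, 2 and 15. Without AL female replicate 1, 24 of the 44 were lower and 16 of the 47 higher. The list was drawn up with results of these data known.

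Genes that had crossed moved past the AL females. Abcb1a (chr5:8567091-8748575), which encodes a drug efflux pump, had 355, 355, 436, 450.3 and 335 in CR males, 128, 115, 84.9, 108 and 76.1 in AL females and 35.1 to 58.2 (median 48) in AL males. Females had the higher level on the AL diet, and every CR male exceeded every AL female, by 1.92 ± 0.20 (SE; adjusted p = 9.9e-07). Serpina6, the corticosteroid-binding globulin gene, had 23692, 29899, 29489.8, 28723 and 25157 in CR males and 18064, 12585, 8653, 14581 and 9985 in AL females, with 4802 to 10647 (median 7381) in AL males (1.14 ± 0.20 SE, adjusted p = 5.0e-04). Nrg4, a growth factor of the epidermal growth factor family, followed the same course with 1.38 ± 0.26 (SE; adjusted p = 7.7e-04). In the opposite direction, Odf3b (-1.67, adjusted p = 1.2e-04), the tight junction gene Tjp3 (-0.95, adjusted p = 9.9e-04) and the lysosomal sulphatase gene Arsg (-0.90, adjusted p = 0.0025) were higher in AL males than in AL females and lower in CR males than in AL females. In all 16 crossed genes the change between CR and AL males was called. The rule for this class all but fixes that result, since it asks for calls of opposite sign against the AL females. In 14 of the 16 genes the CR and AL females also differed. Without AL female replicate 1, 9 of these 16 genes remained crossed.

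More autosomal genes separated CR males from AL females without a called AL sex difference than with one. A missing call does not show that the AL sexes were alike. These 1025 genes were called against AL females but not between the AL sexes, 520 higher and 505 lower in CR males. Their median log2 differences were 0.88 and -0.93, while the AL sexes differed in them by medians of 0.23 and -0.22. The change between CR and AL males was itself called in the same direction in 297 and 252 of them. CR females differed from AL females in these genes by medians of 0.68 and -0.56, and were called in the same direction in 52.1% of the 520 and 36.2% of the 505, a comparison that shares the AL females. The phrase called only against CR males refers to the AL sexes and not to the CR females. Over all 1381 called autosomal genes, the change of CR males from AL males was larger than the AL sex difference in 822 (59.5%). Without AL female replicate 1, 1020 genes were called only against CR males, of which 864 were among the 1025.

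Several of these genes had narrow spreads within both groups. Lonrf1, a ubiquitin ligase gene, had 178, 137, 187.2, 256 and 171 in CR males and 52, 64.9, 53.2, 43.4 and 55.3 in AL females (1.75 ± 0.14 SE, adjusted p = 4.9e-08). Gbe1, the branching enzyme of glycogen synthesis, had 3828, 6009.6, 4194, 5005 and 3530.3 in CR males and 2017, 1505, 1581, 1180.3 and 1893 in AL females (1.46 ± 0.14 SE, adjusted p = 4.0e-07). Nhlrc2 rose by 1.16 ± 0.11 (SE; adjusted p = 3.9e-07). Groups did not overlap in any of these genes, and CR females had medians of 195, 3123 and 934. Lower in CR males were Ddc, which makes dopamine and serotonin from their amino acid precursors, Ncald, a neuronal calcium sensor, and Stra6l, a retinol transporter. Ddc had 352, 284, 259.8, 327 and 238 in CR males and 891, 831, 1526, 1605 and 1469 in AL females (-2.07 ± 0.19 SE, adjusted p = 1.3e-07). Ncald and Stra6l gave -1.53 ± 0.15 (SE; adjusted p = 3.9e-07) and -1.17 ± 0.12 (SE; adjusted p = 9.0e-07). Hsd3b7 (chr7:127800609-127803802) was lower as well, with -1.63 ± 0.15 (SE; adjusted p = 1.9e-07).

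Circadian clock genes were among the most changed. The clock is a loop in which Arntl and Clock or Npas2 activate genes through E-boxes, among them the repressors Per and Cry and the output factors Dbp, Tef and Hlf, which bind D-boxes. Of 25 members 12 were higher and 3 lower in CR males (60%, median 0.73), beside 4.85% and 5.5% of all genes, and none of these 15 genes was called between the AL sexes. The activators fell. Arntl had 58.5, 31.5, 25.6, 27.5 and 36.5 in CR males and 249.6, 167, 686, 674 and 417 in AL females (-3.44 ± 0.49 SE, adjusted p = 5.0e-05), and Npas2 had 2.93, 12.2, 7.16, 2.75 and 8.1 in CR males and 79, 28.6, 581, 199 and 88.6 in AL females (-4.14 ± 0.63 SE, adjusted p = 1.0e-04). No CR male reached the lowest AL female in either gene.

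Of the 8 clock outputs 6 were higher, and of the 17 genes of the loop itself 6 were higher and 3 lower. Wee1, a cell-cycle kinase under clock control, had 602, 401, 725, 621 and 777 in CR males and 69.7, 99.3, 26.1, 20.2 and 31.3 in AL females (3.86 ± 0.43 SE, adjusted p = 1.8e-06), with 17.3 to 132 (median 62.1) in AL males and 419.8 to 654 (median 568) in CR females. Per2 had 1385, 1621, 1234, 1528 and 795 in CR males and 187.2, 365, 105, 103 and 167 in AL females (2.94 ± 0.36 SE, adjusted p = 7.8e-06). Tspan4 gave 1.75 ± 0.19 (SE; adjusted p = 1.8e-06). All 3 genes separated the groups without overlap. Dbp had 2308, 2833, 3915, 2436 and 4314 in CR males and 575, 1974, 42.9, 26.3 and 239 in AL females, with AL female replicate 2 far above the other females. Its difference was 3.93 ± 0.97 (SE; adjusted p = 0.0072), 4.76 without AL female replicate 2 and 3.21 without replicate 4. On recovered reads, which left out AL female replicate 4, the difference was smaller and not called. It was 2.16 in edgeR (adjusted p = 0.11) and 2.15 in DESeq2 (adjusted p = 0.069). Dbp overlaps Sphk2 on chromosome 7, and with no strand setting given their reads cannot be assigned with certainty. CR mice ate 1 ration a day and AL mice ate freely, so feeding time differed with the groups and its part cannot be told apart from theirs.

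E-boxes and D-boxes are the motifs through which the clock loop is known to act, so stretches that hold them upstream of clock genes called higher are shown. The 250 bases before each RefSeq start were searched on both strands in the 10896 tested genes with a window. The E-box CACGTG, a palindrome, occurred in 7 of 21 clock genes with a window (33.3%), in 5 of 16 cholesterol synthesis genes (31.2%) and in 9.7% of all genes, and the D-box TTANNTAA, also a palindrome, in 2 of 21 (9.52%) and 4.52%. The stretches below, from GRCm38.p6 and 5′ to 3′ on the strand of the gene, have the match in capitals.
Tef, E-box 127 bases before a start (chr15:81802516-81802581, plus strand): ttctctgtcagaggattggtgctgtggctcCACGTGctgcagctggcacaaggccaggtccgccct
Tspan4, E-box 51 bases before a start (chr7:141476299-141476364, plus strand): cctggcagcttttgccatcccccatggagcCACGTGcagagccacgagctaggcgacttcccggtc
Per3, D-box 158 bases before the start (chr4:151044786-151044853, minus strand): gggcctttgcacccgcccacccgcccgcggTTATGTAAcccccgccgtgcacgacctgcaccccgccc
Per3, D-box 205 bases before the start (chr4:151044833-151044900, minus strand): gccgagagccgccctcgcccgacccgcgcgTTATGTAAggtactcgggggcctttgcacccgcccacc
All 3 genes were higher in CR males, with log2 differences of 1.86, adjusted p = 5.3e-04 for Tef and 3.25, adjusted p = 0.0026 for Per3. The other 5 clock genes with an E-box, Bhlhe41, Ciart, Cipc, Cry1 and Per1, were not called. A match of letters is a description of these windows and not a binding site. By class, E-boxes occurred in 8.8% of genes that still differed, 7.81% of converged genes and 10.5% of genes called only against CR males, close to the 9.7% of all genes.

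The sex-biased genes were searched in the same way for TTCNNNGAA, the core of STAT5 sites, and ATCGAT, bound by CUX2 and HNF6. TTCNNNGAA occurred in 9.2% of genes that still differed and 7.43% of converged genes, beside 7.46% of all genes, and ATCGAT in 1.2%, 0.372% and 0.743%. TTANNTAA occurred in 9.2% of genes that still differed, 3.35% of converged genes and 4.52% of all genes, and the Cyp3a copies shown above are among its matches. Matches to TTCNNNGAA lay before genes of several classes, among them Gm35696, which was higher in CR males, and the crossed gene Arsg. The 2 shown lie before female-biased genes that stayed far lower in CR males.
A1bg, 84 bases before the start (chr15:60921316-60921384, minus strand): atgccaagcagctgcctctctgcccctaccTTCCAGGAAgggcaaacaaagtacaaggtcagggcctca
Sult3a1, 109 bases before the start (chr10:33857583-33857651, plus strand): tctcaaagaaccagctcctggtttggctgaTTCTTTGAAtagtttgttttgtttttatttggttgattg
Cyp2c38, which converged, has no match to TTCNNNGAA in its window, which says only that these letters are absent from those 250 bases.

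Most genes of cholesterol synthesis were higher in CR males, whereas 4.85% of all genes were higher and 5.5% lower. Of 24 members 18 were higher and 0 lower, with a median of 1.40, and 14 of 18 enzymes were among them, while Hmgcs1, Pmvk, Tm7sf2 and Hsd17b7 were not called. Fdft1, squalene synthase, had 3580.3, 5065, 3632, 2899 and 4405 in CR males and 934, 1751, 876, 1391 and 985 in AL females (1.75 ± 0.17 SE, adjusted p = 4.8e-07). Idi1, which isomerises the isoprenoid unit, had 1876, 3820.2, 2002, 663 and 1005 in CR males and 142, 352, 394, 322 and 208 in AL females (2.56 ± 0.36 SE, adjusted p = 3.6e-05), and Cyp51, lanosterol demethylase, rose by 1.92 ± 0.26 (SE; adjusted p = 2.6e-05). Lss and the sterol transporter gene Stard4 gave 2.01 ± 0.30 (SE; adjusted p = 8.5e-05) and 1.86 ± 0.24 (SE; adjusted p = 1.8e-05). CR males exceeded all AL females in each of these 5 genes, and replicate 2 was the highest CR male. The regulator Srebf2 was not called (0.22, adjusted p = 0.37, interval -0.11 to 0.54). Without CR male replicate 2, 15 of 24 members were higher, with a median of 1.03, and without AL female replicate 1, 17 were.

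Fatty acid synthesis showed the same direction with more spread. Of 32 members 16 were higher and 1 lower (median 0.95), beside 4.85% and 5.5% of all genes. All 7 genes of acetyl-CoA supply and synthesis were higher. Acaca, acetyl-CoA carboxylase, had 7984, 35765, 7305, 4311 and 5300.1 in CR males and 1720.0, 1562, 2343, 1414 and 1510.0 in AL females (2.36 ± 0.37 SE, adjusted p = 1.2e-04). Fasn, fatty acid synthase, had 27679.8, 218575, 25786, 9871 and 18581 in CR males and 4422, 4192, 5732, 3443 and 3522 in AL females (2.89 ± 0.53 SE, adjusted p = 6.4e-04), and Elovl6, the elongase of palmitate, 10201, 68534, 7792, 3106 and 5248 in CR males and 1076, 839.8, 2261, 549 and 838 in AL females (3.30 ± 0.56 SE, adjusted p = 3.2e-04). The groups did not overlap in these genes, but CR male replicate 2 stood far above the other 4. Without it the differences were 1.84, 2.18 and 2.60, and all 3 genes were still called. Acly, ATP-citrate lyase, gave 2.01 ± 0.61 (SE; adjusted p = 0.025), 1.18 without that library, and was not called without AL female replicate 1 (adjusted p = 0.051) or 3 (adjusted p = 0.053).

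The regulator Srebf1 was higher by 1.95 ± 0.47 (SE; adjusted p = 0.0065) and Thrsp, a lipogenic co-regulator, by 2.73 ± 0.55 (SE; adjusted p = 0.0016), while Insig2, which holds the SREBP proteins in the endoplasmic reticulum, was lower (-2.15 ± 0.31 SE, adjusted p = 5.9e-05). Insig2 had 2076, 1116, 1442, 1648 and 2006 in CR males and 5984, 3461, 13165, 5876 and 11701 in AL females, with no overlap. Slc25a1, the mitochondrial citrate carrier, had 9379.7, 12581, 10297, 7579 and 10072 in CR males and 4297, 4933, 4269.5, 4331 and 4750.0 in AL females (1.13 ± 0.16 SE, adjusted p = 5.1e-05) and gave 1.04 without replicate 2. Of 9 genes of triglyceride assembly only Gpam was called, higher by 1.28 ± 0.36 (SE; adjusted p = 0.016). Its difference was 0.75 without CR male replicate 2, and the call was lost in a fit of only the 10 libraries compared (adjusted p = 0.088). Without CR male replicate 2 the list held 13 higher and 2 lower genes with a median of 0.79, and the counts were the same without AL female replicate 1.

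**Figure D4:**
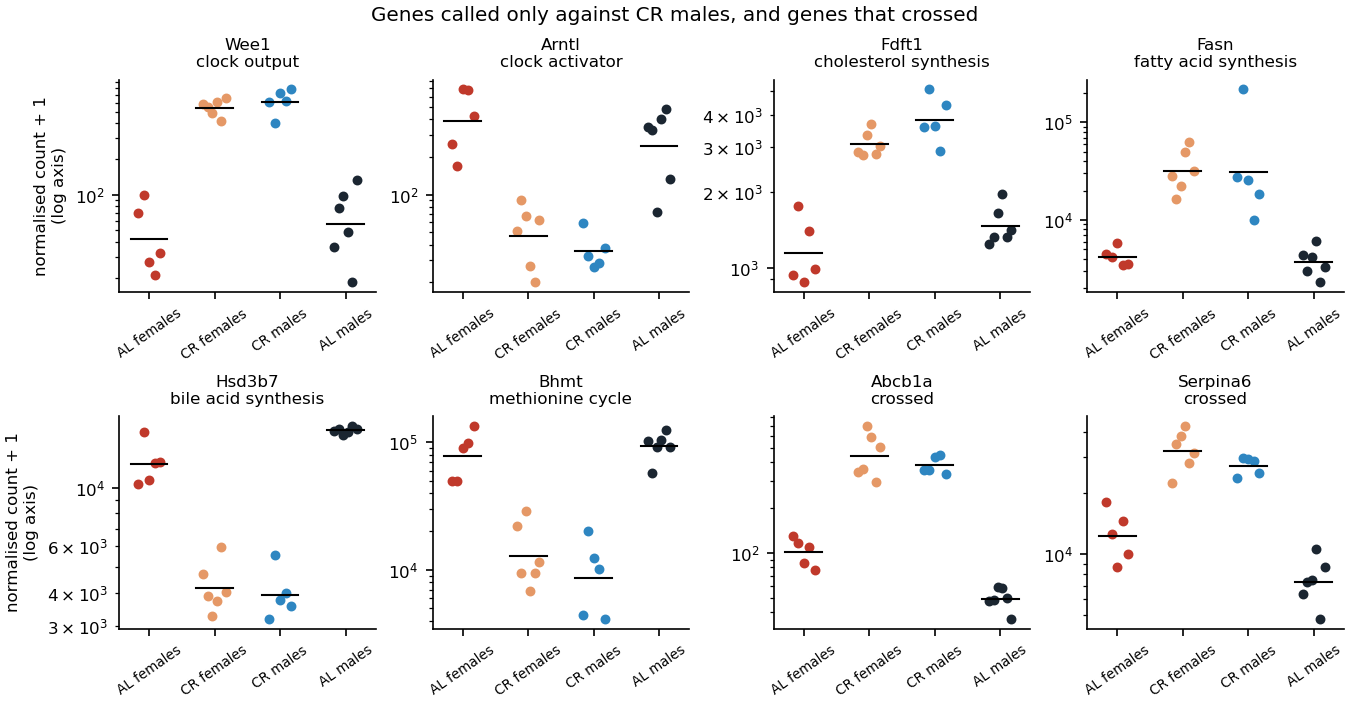
Normalised count + 1 on a log axis in every library of the 4 groups for 6 genes called only against CR males and 2 genes that crossed. Points are libraries and lines are means of log2(value + 1). CR males lie with the CR females and apart from both AL groups, and 1 CR male stands above the other 4 in Fasn.

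Fatty acid oxidation did not follow synthesis. Of 36 genes of oxidation and ketogenesis 0 were higher and 2 were lower by limma (5.56%, against 10.3% of all genes), with a median of -0.02. Of 18 genes of mitochondrial oxidation and 4 of ketogenesis 0 were called by limma, and 5 and 1 had an unadjusted p under 0.05. Cpt1a, which admits acyl chains to mitochondria, gave -0.18, adjusted p = 0.44 with an interval of -0.49 to 0.13. Cyp4a10, a microsomal fatty acid hydroxylase, had 29806, 10203, 20797, 49518 and 21238 in CR males and 72523, 61435, 96551, 26965 and 74847 in AL females (-1.41 ± 0.38 SE, adjusted p = 0.014). The other, the pantetheinase gene Vnn1 (-1.14 ± 0.38 SE, adjusted p = 0.039), lost its call in 9 of the alternatives tried, among them those without AL female replicate 1, 2 or 3 and without CR male replicate 1, 2, 3 or 5. DESeq2 on recovered reads called 4 members, and leaving out CR male replicate 2 gave 2 higher and 1 lower.

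A few enzymes of glucose metabolism were called. Of 50 members 7 were higher and 0 lower, with a median of 0.30, beside 4.85% and 5.5% of all genes. Without CR male replicate 2, 5 were higher and 0 lower. Pklr, liver pyruvate kinase, had 9798, 40205, 13417, 11109.6 and 8693 in CR males and 4088, 3645, 3028, 1758 and 3508 in AL females (2.17 ± 0.33 SE, adjusted p = 1.0e-04). Idh1, the cytosolic isocitrate dehydrogenase that yields NADPH, had 7476, 12042, 7710.2, 6846 and 6640.3 in CR males and 4460.2, 4883, 3485, 4192 and 4569.6 in AL females (0.89 ± 0.14 SE, adjusted p = 1.0e-04). Gpi1, Aldoc and Eno1 of glycolysis rose by 0.79 to 1.34. Pcx, pyruvate carboxylase, was not called (0.06, adjusted p = 0.78, interval -0.20 to 0.33). None of 71 oxidative phosphorylation genes was called by limma, edgeR or DESeq2, although 28 had an unadjusted p under 0.05 in limma and 70 a positive difference, with a median of 0.23. At a threshold on adjusted p alone 9 were called, among them Uqcrc1 (0.49, adjusted p = 0.019).

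Of 30 genes of bile acid synthesis and transport 2 were higher and 3 lower (16.7%), beside 4.85% and 5.5% of all genes. Hsd3b7, which acts in the steps common to both routes, had 3199, 5564, 3779.9, 4006 and 3582 in CR males and 10332, 16171, 10675, 12363 and 12491 in AL females. Cyp8b1, which directs synthesis to cholic acid, had 1251, 11429, 1201, 1589 and 633 in CR males and 8185, 12221, 17279, 10163 and 13319 in AL females, and replicate 2 alone reached the female range. Its difference was -2.74 ± 0.48 (SE; adjusted p = 4.6e-04), and -3.42 without that replicate. Acox2 of side-chain shortening was lower (-1.02 ± 0.17 SE, adjusted p = 2.2e-04), and the basolateral transporter gene Slc51b rose by 1.89 ± 0.43 (SE; adjusted p = 0.0039). Cyp7a1, the rate-limiting enzyme of the classic route, varied from 187.4 to 2325 in CR males and was not called (-0.33, adjusted p = 0.78, interval -1.70 to 1.04). Of the 5 called genes only Cyp7b1 was also called between the AL sexes.

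Among genes of amino acid breakdown, more were lower than higher in CR males. Of 35 members of the urea cycle and amino acid list 1 was higher and 9 lower (median -0.27), beside 4.85% and 5.5% of all genes. Bhmt, which remethylates homocysteine, had 4455, 20329, 12366, 10163 and 4117 in CR males and 49688, 49410.0, 90207, 98124 and 134106 in AL females (-3.18 ± 0.42 SE, adjusted p = 1.7e-05). Agxt, which detoxifies glyoxylate, had 2923, 2989, 5186, 3343 and 4591 in CR males and 8940.2, 12600.4, 8700.4, 19949.6 and 9222 in AL females (-1.60 ± 0.20 SE, adjusted p = 8.0e-06). Cbs, Hal, Hpd and the ornithine carrier gene Slc25a15 were lower, with log2 differences of -1.02, -1.13, -0.66 and -0.87. Hpd lost its call by its fold change under quantile normalisation (-0.53). Bhmt and Agxt did not overlap between the groups. The urea cycle gene Asl had converged from an AL sex difference.

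Interferon-induced genes were called lower more often than all genes, of which 5.5% were lower and 4.85% higher. Of 15 interferon-induced genes 10 were lower and 0 higher, and all 15 had a negative difference, with a median of -0.75. Rsad2, an antiviral enzyme, had 94.6, 50.9, 191, 129 and 104 in CR males and 211, 292, 450.5, 369.5 and 337 in AL females (-1.61 ± 0.29 SE, adjusted p = 4.6e-04). Ifit1 had 111, 84.4, 110.5, 140.0 and 103 in CR males and 214, 385, 463, 340.3 and 299 in AL females (-1.59 ± 0.32 SE, adjusted p = 0.0017), and Irgm1 was lower as well (-0.75 ± 0.14 SE, adjusted p = 8.2e-04). The groups did not overlap in these 3 genes. Of 20 acute phase genes 0 were higher and 1 was lower (5%, median -0.41), with Saa1 at 0.11, adjusted p = 0.9. Macrophage markers moved with the interferon-induced genes: 3 of 8 (Adgre1, Clec4f and Vsig4) were lower, with marker sums of 6296 to 10938 in CR males and 10740 to 14713 in AL females. Also lower were Lyve1 of 8 sinusoidal endothelial markers and the lymphocyte marker Cd79a. Fewer cells of a type and less RNA per cell cannot be told apart in whole liver, and the part of these markers in the result was not tested.

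Of 28 genes of sphingolipid metabolism 1 was higher and 2 were lower (10.7%), a share near the 10.3% of all genes. Cerk, ceramide kinase, had 165, 114, 149, 133 and 113 in CR males and 268.3, 149, 295, 255 and 195 in AL females (-0.75 ± 0.19 SE, adjusted p = 0.0073). Sphk2, a sphingosine kinase that overlaps Dbp, gave -0.66 ± 0.19 (SE; adjusted p = 0.018) and lost its call without AL female replicate 2 (-0.57), and Ugcg, which glucosylates ceramide, gave 0.65 ± 0.19 (SE; adjusted p = 0.022) with a call that was lost without AL female replicate 3 or 4 or CR male replicate 1 (0.54 to 0.62), with the mean log2 value of the acinar markers as a covariate (adjusted p = 0.058) and in edgeR and DESeq2 (0.57 and 0.56). The rate-limiting subunit gene Sptlc1 was at 0.11, adjusted p = 0.42, interval -0.07 to 0.30. Among the 13 genes of ceramide synthesis 0 were called by limma and 1 had an unadjusted p under 0.05. Cers6, described above, was the member called between the AL sexes.

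**Figure D5:**
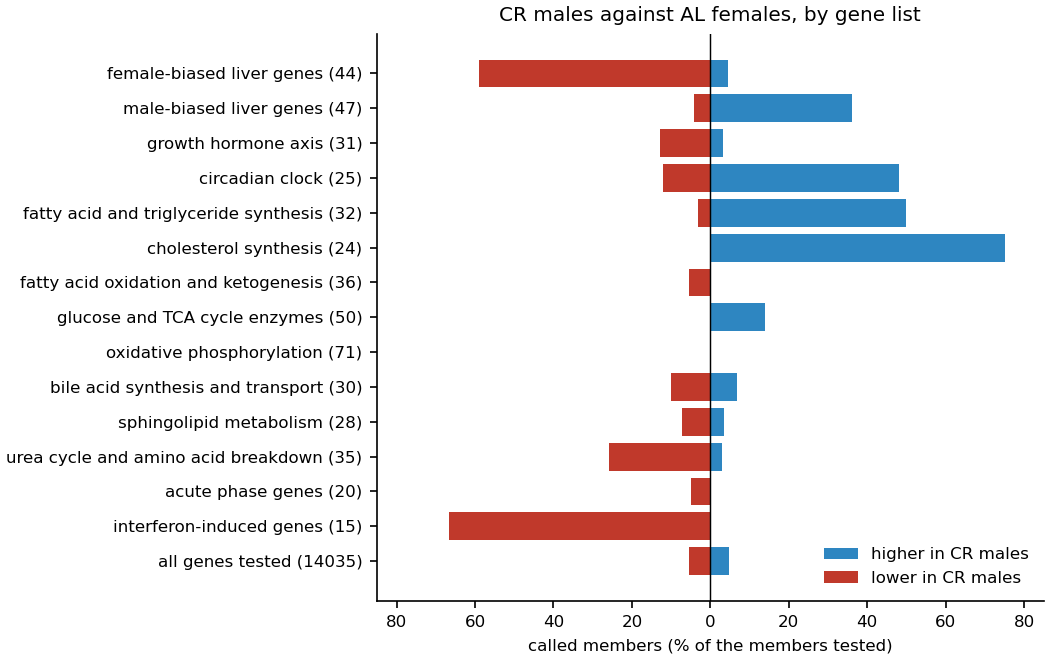
Share of the tested members of each gene list that were higher (right) or lower (left) in CR males than in AL females, in percent of members tested, whose number stands beside the name. Bars start at 0, and the last row gives all 14035 genes (4.85% higher, 5.5% lower). Cholesterol synthesis reaches 75% higher with 0 lower, and the 10 lower of 15 interferon-induced genes have 0 higher.

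On the X chromosome 35 of 393 genes were called (8.91%, beside 10.3% of all genes), 10 higher and 25 lower in CR males. Of the genes that escape X inactivation, Kdm6a had 259, 342, 223, 238 and 208 in CR males and 521, 439, 497, 461 and 393 in AL females (-0.88 ± 0.19 SE, adjusted p = 0.0023), and Eif2s3x differed by -0.61 ± 0.08 (SE; adjusted p = 2.9e-05), a call lost by its fold change without CR male replicate 1 (-0.58) or 4 (-0.56). Kdm5c (-0.49, adjusted p = 0.0024) and Ddx3x (-0.34, adjusted p = 0.091) were not called. Alas2, an enzyme of haem synthesis used by erythroid cells, had 1065, 546, 1625, 1422 and 1698 in CR males, 409, 346, 332, 453 and 487 in AL females and 2360.4 to 4709 (median 3385) in AL males (1.55 ± 0.26 SE, adjusted p = 2.5e-04). The other 5 erythroid markers were not called, and the sum of all 6 ranged from 20146 to 179579 in CR males and from 26256 to 53954 in AL females.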

How the data were processed

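RNA-seq had been run on whole livers of 22 mice, 1 library each. Per the labels and the study's methods, the authors used Trim Galore and FastQC on the reads, STAR 2.7.10a for alignment to the mm10 genome, featureCounts (Subread 1.5.2) for counts per gene, and deposited counts divided by DESeq2 1.36.0 size factors, a signal per gene with no length correction. No source used here gives the strand setting, and the sources differ on whether single-end or paired-end reads were counted. Genes on chromosome Y, Xist, genes with 50 or fewer reads in all and duplicated rows had been removed by the authors.

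From these values, 14035 genes with a mean of at least 10 were tested with limma 3.58.1 (R 4.3.3) on log2(value + 1), in a fit of all 4 groups with Benjamini-Hochberg adjustment, and 2803 genes were left out. Tests were two-sided. Called genes exceeded a fold change of 1.5 at an adjusted p below 0.05. Division by the value of 1 read gave whole reads, to a tolerance of 0.01, and these served edgeR 4.0.16 and DESeq2 1.42.0 as alternatives, without AL female replicate 4, whose recovered reads were not accepted. Other alternatives changed the pseudocount, filter, scaling, samples, covariates and thresholds. Scripts were tested on simulated data.

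The labels number the replicates alike in each group, but nothing ties equal numbers together. The members and gene lists were chosen with earlier results of these data known. Genes named in the text were the largest and most significant changes in each class and members of each list, and some that the rule names are not described. Promoters came from the RefSeq table of GRCm38.p6, the build of mm10.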

Additional observations from a re-analysis of the deposited data

Results flagged for a closer look

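Among the groups of 5 libraries, 1 for each named gene or marker sum in CR males or AL females, 35 held a library that stood apart by Dixon's test, and 34 are given here. These are 12.8% of the groups looked at, and chance alone places about 1 in 20 there, or 13.7 groups. No explanation was tested.

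CR male replicate 2 accounted for 14 of the 34. For genes of fatty acid synthesis it had normalised counts of 35765 in Acaca (7984 in the nearest CR male), 218575 in Fasn (27679.8), 78452 in Acly (7243), 68534 in Elovl6 (10201), 40239 in Thrsp (6952) and 25956 in Gpam (5468). For cholesterol and sugar metabolism it had 3354 in Lss (1040.1), 5410.3 in Acat2 (2801), 12042 in Idh1 (7710.2), 40205 in Pklr (13417) and 30045 in Gpi1 (15689.6). It also had 11429 in the bile acid gene Cyp8b1 (1589), 224 in the interferon-induced gene Oasl1 (152) and 76.3 in the X-linked gene Chic1 (31.2).

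Other CR males stood apart in a few genes each. Replicate 4 had an acinar marker sum of 91740.5 (1044), 1428 in Foxa1 (660.1), 759 in Ifi27l2b (234) and 435 in Sptlc1 (543). Replicate 5 had 4208 in Cyp4a12a (1267) and 652 in Adh6-ps1 (281). Replicate 1 had 1589 in Sphk2 (1261) and 729 in Ugcg (519.9), and replicate 3 had 44.0 in Odf3b (98.7).

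Among AL females, replicate 1 had an acinar marker sum of 2657640.0 (78260.3) and 603 in Vldlr (267). Replicate 2 had 1974 in Dbp (575) and 913 in Stard4 (512). Replicate 3 had 1.87 in Nat8f5 (0), 1307 in Tjp3 (915), 10172 in Ppara (8160.3) and 86565 in Hpd (114337). Replicate 4 had 19549 in Hal (9858) and 20566 in Gls2 (12244), and replicate 5 had 241 in Ncald (381).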

How the results depend on the processing

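Of 135 named results, 118 kept their direction and side of the threshold in every alternative, 12 lost a call in at least 1, and 0 turned direction. Without a minimum fold change, 2398 genes were called, 2295 of them autosomal, 568 genes still differed, 769 converged and 1700 were called only against CR males, since this rule adds genes by construction. With convergence set at 1.5-fold in place of 2-fold, 94 genes converged. Leaving out single libraries gave 1225 to 1536 called genes, 1166 to 1464 autosomal, 259 to 378 that still differed, 228 to 481 that converged and 892 to 1102 called only against CR males. The 228 came without AL female replicate 1 and the 481 without AL male replicate 2, and the cause was not tested. Among the gene lists, fatty acid oxidation ranged from 1 to 5 called members, and glucose metabolism reached 20 and oxidative phosphorylation 9 without a minimum fold change. The 178 undecided genes were neither called nor held within 2-fold by their 95% interval.

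The replicate number as a block gave 1411 called genes, 1345 autosomal, with 313 that still differed, 340 that converged, 1020 called only against CR males and 131 list members. Deviations of CR males and AL females with the same number correlated at -0.08, -0.03, 0.10, -0.16 and 0.38 across genes. Libraries with unlike numbers were not compared in this way, so these values cannot decide whether equal numbers pair the libraries.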

Other observations

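Gene families counted by symbol, chosen after their values were seen, differed in direction between CR males and AL females. Glutathione S-transferases, which conjugate electrophiles, were higher in 9 and lower in 0 of 19 genes tested, with a median log2 difference of 0.76. UDP glucuronosyltransferases were higher in 4 and lower in 0 of 16. Sulphotransferases were lower in 9 and higher in 0 of 16 (median -1.88), and Mup genes were lower in 8 and higher in 1 of 22 (median -1.65), although their shared sequence makes single Mup values uncertain. Cytochrome P450 genes went both ways, with 9 higher and 20 lower of 73. Of 78 cytosolic ribosomal protein genes 1 was higher and 0 were lower, and of 37 proteasome subunit genes 0 were called by limma (10 at an unadjusted p under 0.05), beside 10.3% of all genes.

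Genes of a class could lie close together. Within 100 kb, another gene of the same class lay beside 83 of 340 genes that still differed (24.4%), 53 of 345 that converged (15.4%) and 343 of 1025 called only against CR males (33.5%). By chromosome, the share of tested genes that still differed was highest on chromosome 5 (4.14%), which holds the Cyp3a genes, and on chromosome 19 (3.86%), which holds the Cyp2c genes, and lowest on chromosome 12 (1.05%). Neighbouring members of a family can share reads, and classes of unequal size have unequal chances of a neighbour, so these shares are descriptions.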
